A study of Homo sapiens with 6 samples.

Results

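Epithelial-mesenchymal transition (EMT) regulators and markers were analyzed as a set of 10 genes in MDA-MB-231 cells, an established human triple-negative breast cancer line, after treatment with the DNA methyltransferase inhibitor guadecitabine (SGI-110). The genes were chosen by symbol, as CDH1, CDH2, EPCAM, VIM, ZEB1, ZEB2, SNAI2, GRHL2, ESRP1 and ESRP2, and all 10 were found among the 17100 genes of the count table. RNA was sequenced from 3 vehicle libraries and from 3 guadecitabine libraries, with the 3 libraries of a group taken from independent experiments. For the guadecitabine libraries, the drug was given at 1 µM for 96 h, followed by a further 24 h without treatment. Neither the labels nor the methods say what the vehicle was or whether vehicle cells were harvested on the same schedule. No genetic change is named, so that both groups are the same unmodified line, grown in medium with 10% fetal bovine serum, and represent cells of 1 tumor in culture.

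In EMT, epithelial cells give up E-cadherin junctions and acquire a motile, vimentin-rich state. The repressors of the ZEB and SNAIL families bind E-box motifs in epithelial genes and recruit corepressors, while Grainyhead-like 2 and the epithelial splicing regulators ESRP1 and ESRP2 maintain the epithelial program. MDA-MB-231 is widely used as a mesenchymal-type breast cancer line, in which the epithelial members of this network are mostly low, and decitabine-type drugs such as guadecitabine lower DNA methylation in dividing cells.

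Library totals ranged from 8792127 to 22277442 counts, and the least deep library was guadecitabine replicate 2. Vehicle replicate 3 stood apart from the others with only 20 genes at 0 counts, against 1593 to 2517 in the other 5 libraries, and a set of 533 genes, chosen by 0 or 1 count in each of vehicle replicates 1 and 2 and 11 or more over the guadecitabine libraries, had a median of 7.10 counts per kb of exon in it. This rate times the exon length of a gene is given below as the expected background count of vehicle replicate 3, and results that rest on this library are given with and without it. TWIST1, THY1, POSTN and CDH13, reported below, meet the rule of this set and so are among the genes that gave the rate. The estrogen and progesterone receptor genes ESR1 and PGR had at most 1 count in each library except vehicle replicate 3, with 67 and 43 counts there. ERBB2, encoding HER2, was detected at 1708 ± 158.5 (SD, n = 3) normalized counts in vehicle libraries, so that its RNA was not absent. Markers of luminal breast cells summed to 2026 to 2405 normalized counts in vehicle and 1122 to 1339 in guadecitabine libraries, those of melanocytic cells to 305 to 385 and 309 to 400.0, and those of leukocytes to 34.3 to 61.0 and 33.2 to 38.7. ESR1, PGR, MLANA, TYR, DCT and PTPRC had at most 3 counts outside vehicle replicate 3. In bulk libraries, a change in the share of cells that express a gene and a change in the RNA per cell cannot be told apart.

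Because the drug acts on CpG methylation, start sites of the mesenchymal members CDH2, ZEB2 and VIM are shown with their CpG sites. RefSeq windows on GRCh38.p14, from 250 bases before to 50 bases after a start site, were matched by symbol for 4 of the 10 genes, CDH2, VIM, ZEB1 and ZEB2. The CDH2 window at chr18:28177081-28177380 (minus strand), upstream of the gene with the largest rise, held 23 CpG sites against a median of 14 over 35116 windows. Of all windows, 64.2% had fewer CpG sites than this one. The ZEB2 window at chr2:144520070-144520369 (minus strand) held 14 CpG sites and the VIM window at chr10:17227991-17228290 (plus strand) held 10. The 3 sequences are printed 5′ to 3′ with CpG sites in capitals:
CDH2: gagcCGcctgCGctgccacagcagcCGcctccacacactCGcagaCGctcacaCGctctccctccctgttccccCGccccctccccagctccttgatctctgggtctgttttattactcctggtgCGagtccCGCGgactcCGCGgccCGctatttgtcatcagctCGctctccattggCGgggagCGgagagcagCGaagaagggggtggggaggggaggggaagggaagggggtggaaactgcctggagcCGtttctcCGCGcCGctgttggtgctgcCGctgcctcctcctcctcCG
ZEB2: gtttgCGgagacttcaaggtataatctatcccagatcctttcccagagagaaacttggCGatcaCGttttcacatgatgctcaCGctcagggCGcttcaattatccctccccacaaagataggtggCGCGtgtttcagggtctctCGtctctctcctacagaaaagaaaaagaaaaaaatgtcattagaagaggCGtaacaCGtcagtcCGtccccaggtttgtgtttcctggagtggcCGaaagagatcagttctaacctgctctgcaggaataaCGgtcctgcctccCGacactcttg
VIM: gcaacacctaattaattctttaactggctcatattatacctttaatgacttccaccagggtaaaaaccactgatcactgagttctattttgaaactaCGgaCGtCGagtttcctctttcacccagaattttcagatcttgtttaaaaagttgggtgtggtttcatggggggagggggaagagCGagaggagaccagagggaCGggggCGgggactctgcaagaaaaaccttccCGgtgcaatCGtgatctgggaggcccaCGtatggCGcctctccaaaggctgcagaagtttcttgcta
The E-box bound by ZEB and SNAIL proteins, CACCTG or its reverse complement CAGGTG, was searched on both strands and was present in 20.6% of all windows. It had 0 matches in each of the 3 windows printed. ZEB1 had 7 windows with 7 to 35 CpG sites, of which 2 held the E-box, and a second CDH2 window held 4 CpG sites and no E-box. DNA methylation was not measured in these libraries.

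Of the 10 genes, 8 passed the filter on low counts and were tested in the edgeR fit over 13322 genes, while ESRP1 and GRHL2 did not pass. CDH2, ESRP2, ZEB2 and VIM were higher after guadecitabine and CDH1, EPCAM and SNAI2 were lower at an adjusted p under 0.05, whereas ZEB1 did not pass in either direction. Thus 4 of 8 were higher, against 19.3% of all genes tested, and 3 of 8 were lower, against 18.4%. The 4 higher and 3 lower genes were also those whose groups did not overlap, which was seen with guadecitabine above in 26.6% and below in 25.0% of all genes tested. The median log2 fold change was 0.18 over the 8 genes and 0.02 over all genes tested. With 8 genes chosen by name, these shares are a description of the set. Without vehicle replicate 3, 3 of the 8 genes were higher and 3 lower, the gene lost being VIM, while over all genes 3002 were higher and 2575 lower in place of 2576 and 2446. By role, each direction held genes of both states, with the epithelial ESRP2 among the higher genes and the mesenchymal SNAI2 among the lower genes.

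**Figure D1:**
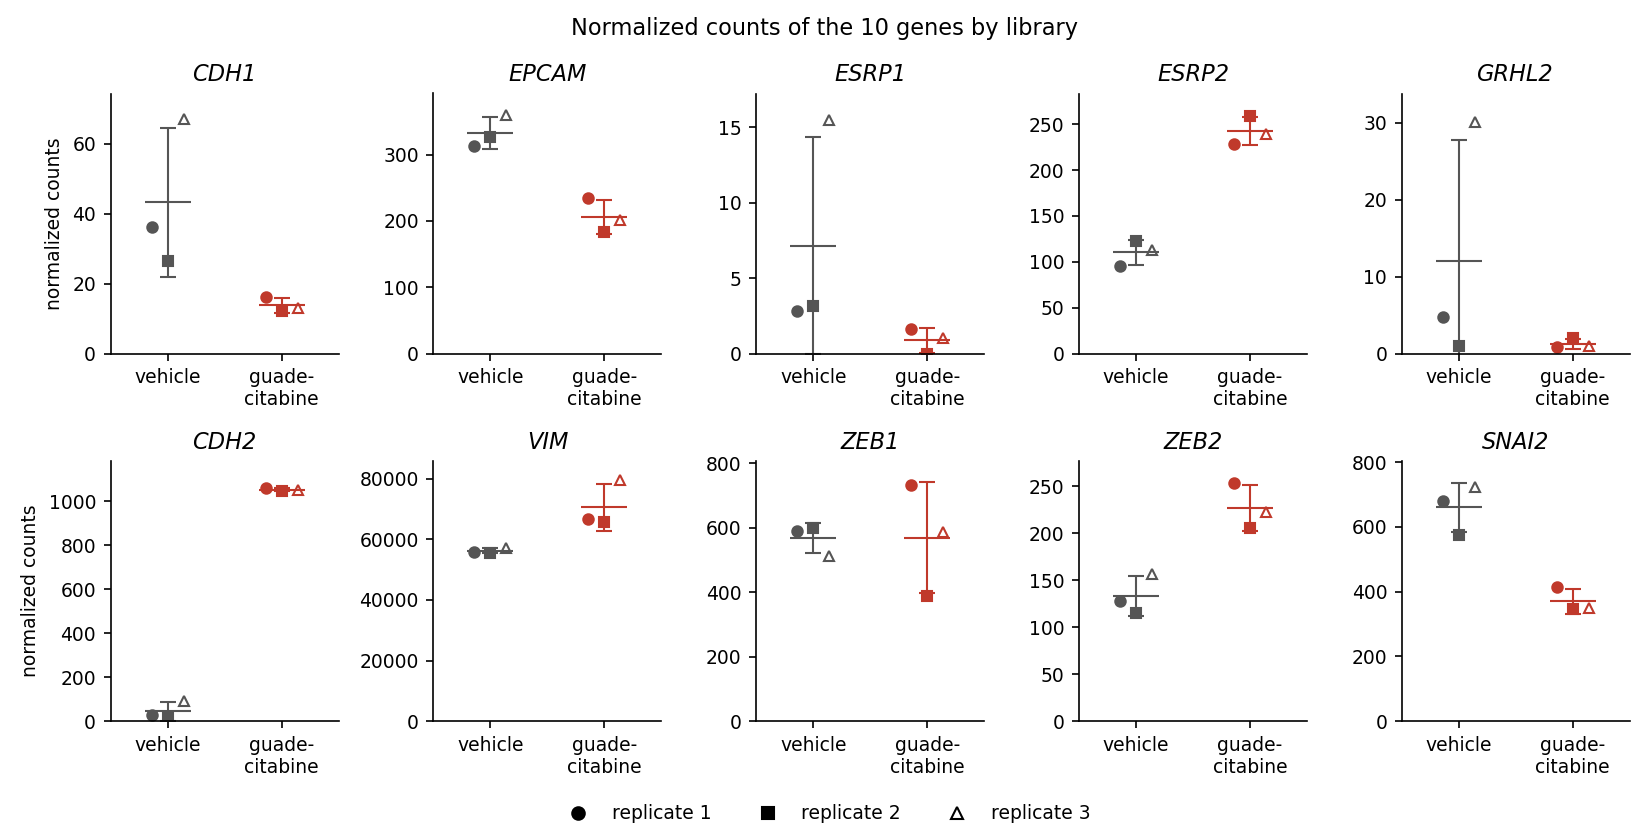
Normalized counts (vertical axes, each starting at 0) of the 10 genes in the 3 vehicle libraries (grey) and the 3 guadecitabine libraries (red), with symbols for the replicate number, horizontal lines for the means and bars for the SD. CDH2 stands at 1044 to 1059.8 in the guadecitabine libraries against 13.7 to 91.1 in vehicle, while the ZEB1 groups overlap, and vehicle replicate 3 is the highest vehicle library for CDH1, CDH2, ESRP1 and GRHL2.

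The cadherins are the classic pair of EMT markers. CDH2 encodes N-cadherin, the adhesion protein of neural and mesenchymal cells, and lies at chr18:25530930-25757445 (hg19, minus strand). Vehicle replicates 1, 2 and 3 had 27.6, 13.7 and 91.1 normalized counts of CDH2 and guadecitabine replicates 1, 2 and 3 had 1059.8, 1044 and 1053. The guadecitabine libraries were thus nearly equal and all far above the vehicle libraries, among which replicate 3 was the highest. The group means were 44.2 ± 41.3 and 1052 ± 7.91 (SD, n = 3 each). CDH2 was upregulated 22.6-fold, a log2 fold change of 4.50 (SE 0.449, adjusted p = 8.38e-05, edgeR quasi-likelihood test). Vehicle replicate 3 had 118 raw counts of CDH2, against an expected background of 31.0. Without this library the rise was 49.9-fold, a log2 fold change of 5.64 (adjusted p = 8.16e-08, edgeR), and CDH2 passed the test under all 13 alternative settings with log2 fold changes of 4.12 to 5.64. For the non-overlapping CDH2 groups, a two-sided exact permutation test gave p = 0.1, and no smaller p can be reached with 3 libraries a group. The same p of 0.1 was found for each of the other genes without overlap.

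CDH1 encodes E-cadherin, the core of epithelial adherens junctions, and lies at chr16:68771195-68869444 (hg19, plus strand). Its normalized counts were 36.2, 26.4 and 67.2 in vehicle and 16.2, 12.2 and 13.1 in guadecitabine replicates 1, 2 and 3. All guadecitabine libraries were below all vehicle libraries, on raw counts of only 6 to 20 after guadecitabine. Expression went from 43.3 ± 21.3 to 13.8 ± 2.09 (SD, n = 3 each), a log2 fold change of -1.62 (SE 0.504, adjusted p = 0.0313, edgeR). In vehicle replicate 3 the observed count was 87 and the expected background 34.2. Without this library the log2 fold change was -1.14 (adjusted p = 0.0190, edgeR), still in the same direction. The call of CDH1 was lost in 6 of 12 alternatives, among them those without vehicle replicate 1 (-1.73, adjusted p = 0.0614) and without guadecitabine replicate 1 (-1.76, adjusted p = 0.0667), 2 (-1.55, adjusted p = 0.0916) or 3 (-1.59, adjusted p = 0.114), all from edgeR. CDH1 was thus lower in every guadecitabine library than in any vehicle library, but at these counts its call depended on single libraries and on the settings of the fit.

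EPCAM encodes an epithelial surface glycoprotein used to capture carcinoma cells, and lies at chr2:47596287-47614167 (hg19, plus strand). Vehicle replicates 1 to 3 had 312, 326 and 359.9 normalized counts and guadecitabine replicates 1 to 3 had 234.0, 183 and 201. The groups were clearly apart, and vehicle replicate 3 was close to the other vehicle libraries, with an expected background of 12.2 in 466 counts. EPCAM fell from 333 ± 24.4 to 206 ± 25.8 (SD, n = 3 each), a log2 fold change of -0.68 (SE 0.138, adjusted p = 0.00446, edgeR). It passed the test under all 13 alternatives, with log2 fold changes of -0.79 to -0.61.

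VIM encodes vimentin, the intermediate filament protein of mesenchymal cells, and lies at chr10:17270258-17279592 (hg19, plus strand). It had 55934, 55524 and 57265 normalized counts in the vehicle libraries and 66779.7, 65580.4 and 79581 in the guadecitabine libraries. VIM was abundant in every library, and the guadecitabine libraries were above the vehicle libraries with replicate 3 the highest. The means were 56241 ± 910.2 and 70647 ± 7760.4 (SD, n = 3 each), a 1.26-fold rise with a log2 fold change of 0.33 (SE 0.0971, adjusted p = 0.0258, edgeR). The call was lost without vehicle replicate 1 (adjusted p = 0.0872), 2 (adjusted p = 0.0957) or 3 (adjusted p = 0.0558) and without guadecitabine replicate 3 (log2 fold change 0.23, adjusted p = 0.0740, all from edgeR). The log2 fold change stayed between 0.23 and 0.38 over the 13 alternatives. Of the 2 mesenchymal markers, CDH2 therefore changed by far more than VIM, which was already high in vehicle cells.

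The transcriptional repressors did not move together. ZEB1, a zinc finger homeobox repressor of CDH1, lies at chr10:31608101-31818742 (hg19, plus strand). Its normalized counts were 589.5, 599 and 513 in vehicle and 732, 389 and 587 in guadecitabine replicates 1 to 3. The guadecitabine libraries lay on both sides of the vehicle libraries. With means of 567 ± 47.2 and 569 ± 172 (SD, n = 3 each), ZEB1 had a log2 fold change of 0.02 (SE 0.198, adjusted p = 0.939, edgeR), and the exact permutation test gave p = 1.0. Over the alternatives its log2 fold change ran from -0.19 to 0.22 with 0 calls, so that a change of this size was not detectable with these libraries.

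ZEB2, the paralog of ZEB1, lies at chr2:145141942-145277958 (hg19, minus strand). It had 128, 115 and 157 normalized counts in vehicle and 253, 206 and 222 in guadecitabine replicates 1 to 3. No guadecitabine library was as low as the highest vehicle library, which was replicate 3, with an expected background of 63.5 in 203 counts. ZEB2 rose 1.71-fold from 133 ± 21.4 to 227 ± 24.3 (SD, n = 3 each), a log2 fold change of 0.77 (SE 0.169, adjusted p = 0.00669, edgeR). The log2 fold change was 0.91 without vehicle replicate 3, and ZEB2 passed the test under all 13 alternatives. The difference between the changes of ZEB1 and ZEB2 is shown by their ratio in each library below.

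SNAI2 encodes SLUG, a SNAIL family repressor of E-cadherin, and lies at chr8:49830239-49833999 (hg19, minus strand). The vehicle libraries had 681, 575.5 and 723 normalized counts and the guadecitabine libraries had 415, 346 and 349. SNAI2 was lower in each guadecitabine library than in each vehicle library. It fell from 660 ± 75.9 to 370.2 ± 39.1 (SD, n = 3 each), a log2 fold change of -0.83 (SE 0.130, adjusted p = 0.00113, edgeR), and passed the test under all 13 alternatives. SNAI1, encoding the related repressor SNAIL, went the other way, from 55.2, 43.3 and 68.7 to 235, 201.5 and 225 normalized counts. Its log2 fold change was 1.98 (SE 0.204, adjusted p = 0.000102, edgeR), so that these close relatives changed in opposite directions.

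The epithelial regulators were low except ESRP2. ESRP2 encodes a splicing regulator that keeps epithelial exons, and lies at chr16:68262450-68270136 (hg19, minus strand), 501059 bp from CDH1. Its normalized counts were 95.2, 122.5 and 113 in vehicle and 228, 258.5 and 239 in guadecitabine replicates 1 to 3. Each guadecitabine library was well above the vehicle libraries, and vehicle replicate 3 had 146 raw counts against an expected background of 23.5. ESRP2 was upregulated 2.19-fold from 110.2 ± 13.8 to 242 ± 15.3 (SD, n = 3 each), a log2 fold change of 1.13 (SE 0.156, adjusted p = 0.000555, edgeR). It passed the test under all 13 alternatives with log2 fold changes of 1.04 to 1.22. ESRP2 thus rose while CDH1, on the same chromosome, fell. Splice forms of the targets of ESRP2 were not measured.

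ESRP1, the paralog of ESRP2, lies at chr8:95653364-95719694 (hg19, plus strand). It had 3, 3 and 20 counts in vehicle and 2, 0 and 1 counts in guadecitabine replicates 1 to 3. All libraries except vehicle replicate 3 were at or under the floor of detection of 3 counts, and the 20 counts in that library were below the expected background of 27.0. GRHL2, a Grainyhead-like activator of CDH1, lies at chr8:102504668-102681952 (hg19, plus strand). It had 5, 1 and 39 counts in vehicle and 1 count in each guadecitabine library, with an expected background of 37.1 in vehicle replicate 3. With all genes of the table tested, the adjusted p was 0.310 for ESRP1 and 0.201 for GRHL2 (edgeR), and the exact permutation test of normalized counts gave p = 0.1 and p = 0.2. No induction of ESRP1 or GRHL2 by guadecitabine was detectable at this depth. These floors cover counting error only.

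**Figure D2:**
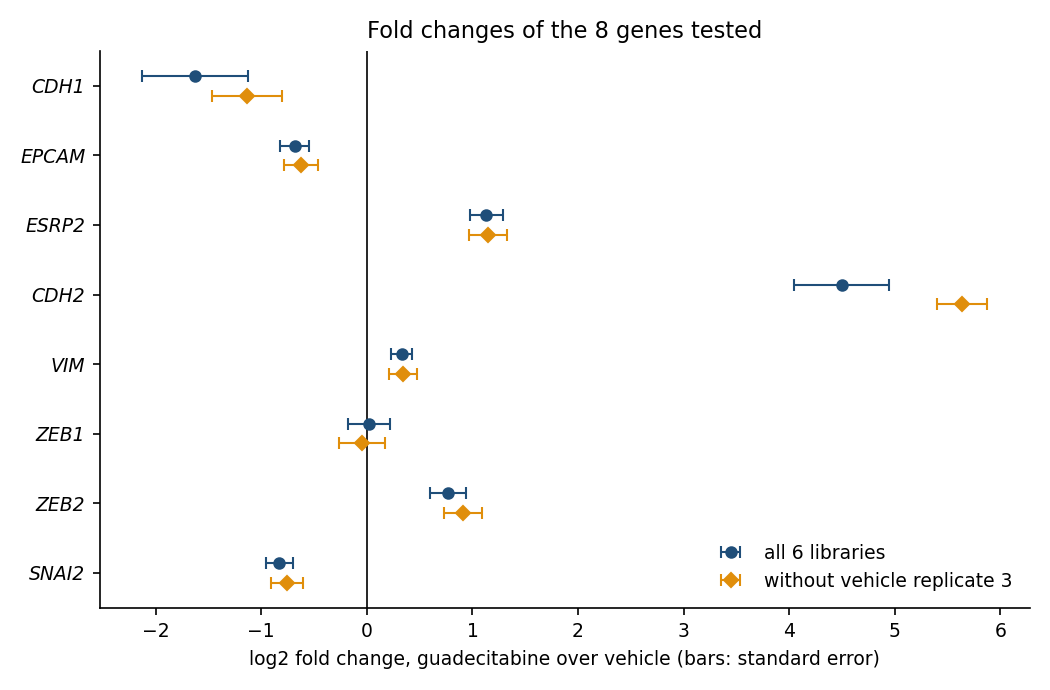
Log2 fold change of guadecitabine over vehicle (horizontal axis) for the 8 genes tested, with bars for the SE, from all 6 libraries (circles) and without vehicle replicate 3 (diamonds). CDH2 moved from 4.50 to 5.64 and CDH1 from -1.62 to -1.14 without this library, while ESRP2 stayed near 1.13 and EPCAM near -0.68.

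To compare levels between genes, normalized counts were divided by the counted exon length and are given as reads per kb. In vehicle libraries VIM was the highest with 37619 reads per kb, followed by SNAI2 with 313, EPCAM with 194, ZEB1 with 94.6 and ESRP2 with 33.3. Each of these was above the next in all libraries. ZEB2 with 14.9, CDH2 with 10.1, CDH1 with 8.98, GRHL2 with 2.29 and ESRP1 with 1.88 reads per kb followed, and the ranges of adjacent genes at this end of the order overlapped. Without vehicle replicate 3, an alternative added after the data were seen, the vehicle means of CDH1, CDH2, ESRP1 and GRHL2 were 6.50, 4.73, 0.792 and 0.556 reads per kb, in that order. CDH1 was above CDH2 in both remaining libraries, but on raw counts of only 38 and 25 against 29 and 13. After guadecitabine, CDH2 stood at 241.0 reads per kb, second only to VIM with 47256 and above SNAI2 with 175.5. EPCAM with 120 reads per kb, ZEB1 with 95.0 and ESRP2 with 73.2 came next, with overlapping ranges between EPCAM and ZEB1 and between ZEB1 and ESRP2. ZEB2 at 25.4, CDH1 at 2.88, GRHL2 at 0.246 and ESRP1 at 0.230 reads per kb closed the order, and of these only GRHL2 and ESRP1 overlapped. CDH2 was thus among the low genes in vehicle libraries, with or without replicate 3, and the second of the 10 genes after guadecitabine. The levels of ESRP1 and GRHL2 in both groups rest on counts at or near the floor outside vehicle replicate 3.

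**Figure D3:**
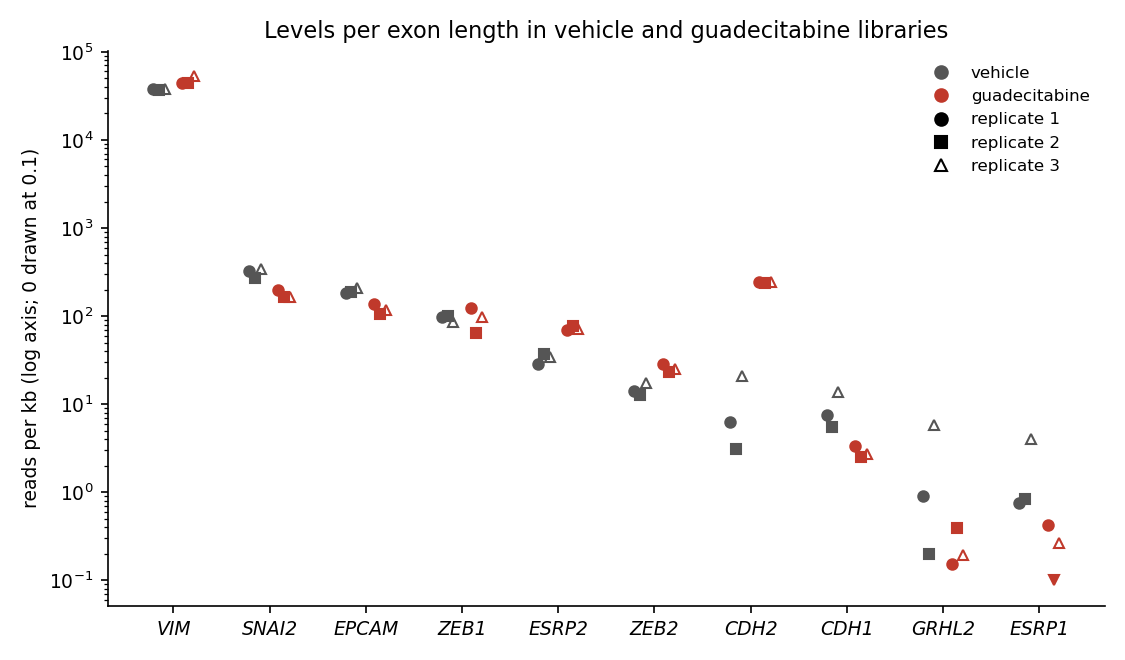
Reads per kb of counted exon (vertical log axis) of the 10 genes, ordered by their vehicle mean, in vehicle (grey) and guadecitabine (red) libraries with symbols for the replicate number and a triangle pointing down at 0.1 for the 1 library at 0. VIM is at 37139.8 or more in every library, and CDH2 changes from 3.14 to 20.9 in vehicle libraries to 239 to 243 in guadecitabine libraries.

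Ratios within a library do not depend on its scaling and show how related genes shifted against each other. The log2 ratio of CDH2 to CDH1, per kb, was -0.25, -0.80 and 0.58 in vehicle replicates 1, 2 and 3 and 6.17, 6.56 and 6.47 in guadecitabine replicates 1, 2 and 3. CDH1 was thus the higher in vehicle replicates 1 and 2, and CDH2 in vehicle replicate 3. N-cadherin RNA was far in excess after guadecitabine, with a difference between the group means of 6.56 on the log2 scale. Raw counts of both genes were only 13 to 38 in vehicle replicates 1 and 2. Those of CDH1 were 6 to 20 after guadecitabine. The log2 ratio of ZEB1 to ZEB2 was 2.79, 2.96 and 2.29 in vehicle and 2.11, 1.50 and 1.98 in guadecitabine libraries. It stayed above 0 in every library, with a lower mean of 1.86 ± 0.322 after guadecitabine against 2.68 ± 0.348 (SD, n = 3 each). The log2 ratio of SNAI2 to SNAI1 fell from 3.32, 3.43 and 3.09 to 0.52, 0.47 and 0.33. SNAI2 was therefore still the higher of the SNAIL genes in every library, though by much less after guadecitabine. The groups did not overlap in any of the 3 ratios, which were chosen as pairs of related genes and are given without a test.

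**Figure D4:**
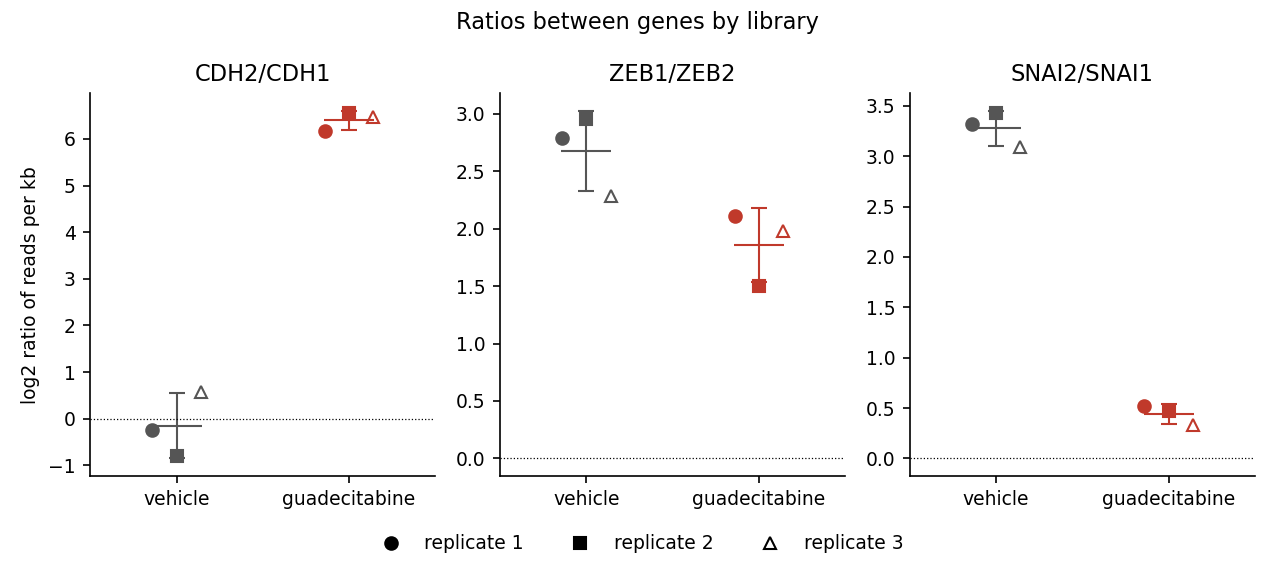
Log2 ratio of reads per kb between CDH2 and CDH1, ZEB1 and ZEB2, and SNAI2 and SNAI1 (vertical axes) in the vehicle (grey) and guadecitabine (red) libraries, with lines for the means and bars for the SD. The CDH2 to CDH1 ratio goes from a mean of -0.16 to 6.40, the ZEB1 to ZEB2 ratio from 2.68 to 1.86 and the SNAI2 to SNAI1 ratio from 3.28 to 0.44.

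The partners of the ZEB and SNAI2 repressors were examined next, in the same fit, where 19.3% of all genes tested were higher and 18.4% lower. Of 15 further transcription factors linked to the mesenchymal state, 11 were tested, 3 were higher (SNAI1, PRRX2 and FOXC1) and 3 were lower, FOXQ1 and HMGA2 among them (27.3% in each direction), with a median log2 fold change of 0.02. The forkhead factor FOXQ1 went from 896 ± 20.2 to 543 ± 8.29 normalized counts (SD, n = 3 each), a log2 fold change of -0.72 (adjusted p = 0.000404, edgeR). The calls of FOXC1 (0.54) and HMGA2 (-0.33) were less stable: that of FOXC1 was lost without vehicle replicate 1 or 2 (adjusted p up to 0.0610, edgeR) and that of HMGA2 without any 1 vehicle library or guadecitabine replicate 3 (up to 0.101). The number of factors that were higher was 5 without vehicle replicate 3, which added TWIST1 and FOXC2, both at 0 counts in the other vehicle libraries, and 1 without vehicle replicate 1 or 2. In vehicle replicate 3, FOXC2 had 52.5 normalized counts, above the 15.4 to 23.2 of the guadecitabine libraries. Over all libraries its groups overlapped, with a log2 fold change of 0.07 (adjusted p = 0.971, edgeR). Among 8 corepressors recruited by ZEB and SNAIL proteins, 0 were higher and 4 were lower (CTBP1, HDAC1, KDM1A and SMARCA4), against 18.4% of all genes tested that were lower, with a median of -0.26. HDAC1, a histone deacetylase, had a log2 fold change of -0.64, from 3758 ± 616 to 2414 ± 182 normalized counts. That of CTBP1 was -0.44, and its call was lost without vehicle replicate 1 or 2 or guadecitabine replicate 3 (adjusted p up to 0.0950, edgeR). With single libraries left out, 1 to 3 of the corepressors were lower.

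Epithelial factors, splicing factors and junction genes were counted against the same shares of 19.3% higher and 18.4% lower over all genes tested. Of 13 epithelial transcription factors, 9 were tested, and of these 4 were higher (ELF3, EHF, KLF4 and GATA3) and 1 was lower (SPDEF), or 44.4% and 11.1%, with a median log2 fold change of 0.35. The pluripotency and differentiation factor KLF4 rose by 1.06 on the log2 scale, from 680 ± 48.8 to 1416 ± 154.5 normalized counts (SD, n = 3 each; adjusted p = 0.000163, edgeR). SPDEF, a luminal ETS factor, fell by 1.73, and GATA3 and ELF3 rose by 0.83 and 0.59. Of 8 splicing factors that act beside or against the ESRP proteins, 0 were higher and 5 were lower (RBFOX2, MBNL1, PTBP1, SRSF1 and RBM47), or 62.5%, with a median of -0.38. MBNL1 fell by 0.60 and RBM47 by 0.51 on the log2 scale, in contrast to the rise of ESRP2. The count of lower splicing factors was 2 without vehicle replicate 1 or guadecitabine replicate 3, 3 without vehicle replicate 2 and 6 without vehicle replicate 3.

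Among 30 tested genes of epithelial junctions and the cell surface, companions of CDH1 and EPCAM, 6 were higher and 8 were lower, with a median log2 fold change of -0.03. The share that were higher, 20.0%, was near the 19.3% of all genes tested, and 26.7% were lower against 18.4%. The protease inhibitor gene SPINT1 (1.67), the tricellular junction gene LSR (1.19) and the tight junction gene CGN (1.12) rose, whereas INADL (-1.48), a polarity gene, and KRT19 (-0.88), a simple epithelial keratin, fell. KRT19 went from 16286 ± 1849 to 8839 ± 1584 normalized counts (SD, n = 3 each; adjusted p = 0.00164, edgeR), the same direction as EPCAM. The number that were higher was 11 without vehicle replicate 3. Of 8 genes of the cadherin-catenin complex, which anchors cadherins to actin, VEZT was higher (0.56) and CTNNA1, CTNND1 and VCL were lower, or 12.5% and 37.5%, with a median of -0.26. VCL (-0.62) links the complex to actin, as does the α-catenin gene CTNNA1 (-0.49). The call of VEZT was lost without vehicle replicate 1 or 2 or guadecitabine replicate 1 or 3 (adjusted p up to 0.139, edgeR) and that of CTNND1 without any 1 library except vehicle replicate 2 (up to 0.143). CTNND1 was counted over only 445 bp of exon, against 3783 bp for CTNNA1, with 41 to 200 raw counts per library. Its value covers that stretch alone.

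Of 26 tested companions of CDH2 and VIM in mesenchymal structure and matrix, 9 were higher (34.6%, against 19.3% of all genes tested) and 8 were lower (30.8%, against 18.4%), with a median log2 fold change of 0.21. SPARC, encoding a matrix glycoprotein, had 17.1, 25.3 and 57.1 normalized counts in vehicle and 3044, 3389 and 3023 in guadecitabine libraries. It resembled CDH2 in that a low gene became abundant in all 3 guadecitabine libraries, with a log2 fold change of 6.51 (SE 0.322, adjusted p = 1.41e-06, edgeR) and of 7.21 without vehicle replicate 3. The collagen gene COL1A1 (3.38) and the gelatinase gene MMP2 (2.96, or 3.65 without vehicle replicate 3) rose as well. COL5A1 (-2.15), the tenascin gene TNC (-1.67) and S100A4 (-1.38), a calcium-binding protein gene of motile cells, fell. Of 17 further cadherin genes 6 were tested, with CDH13 higher (16.7%), CDH4 and CDH11 lower (33.3%) and a median of 0.01. CDH11, which the mesenchymal list also holds, went from 2596 ± 199 to 1005 ± 14.3 normalized counts (SD, n = 3 each; log2 fold change -1.37) and CDH4 had a log2 fold change of -2.39. CDH13 had 1, 0 and 72 counts in vehicle and 484, 184 and 465 in guadecitabine libraries, a log2 fold change of 4.30 (adjusted p = 0.00300, edgeR). The expected background of CDH13 in vehicle replicate 3 was 28.6 counts, below the 72 observed. Without this library the log2 fold change was 9.35 (adjusted p = 1.26e-07, edgeR), on vehicle counts of 1 and 0. Against a floor of 3 counts per library in vehicle replicates 1 and 2 alone, CDH13 was at least 137-fold higher. That fold is no lower bound for the comparison of all libraries. Among the 7 tested markers of other cells, PMEL (1.73) and GATA3 were higher and AGR2 (-1.33) and SPDEF lower, with a median of -0.30, and their part in the results was not tested.

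**Figure D5:**
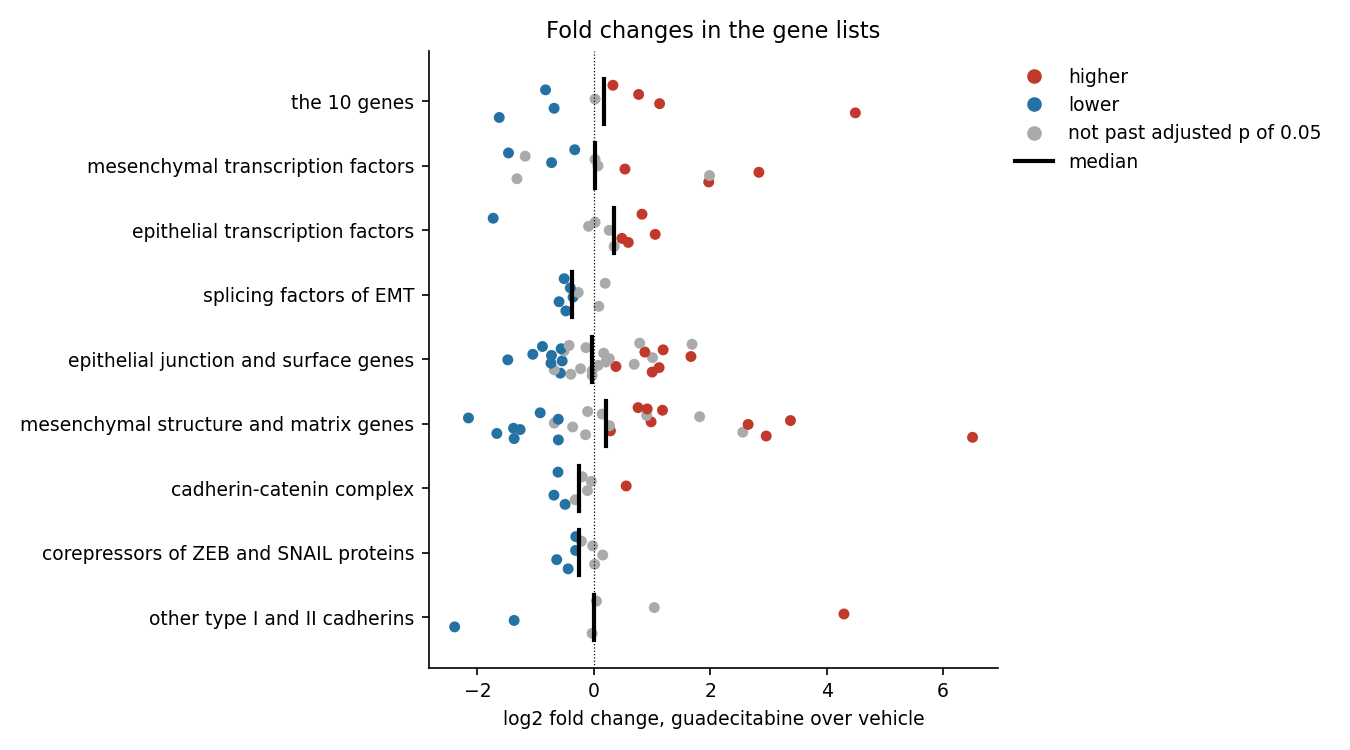
Log2 fold change of guadecitabine over vehicle (horizontal axis) for every tested gene of the 10 genes and of 8 related lists (rows), with red and blue points for genes higher and lower at an adjusted p under 0.05, grey points for the others and black lines for the medians. The list medians lie between -0.38 and 0.35, and CDH2 at 4.50, CDH13 at 4.30 and SPARC at 6.51 stand far to the right.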

How the data were processed

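RNA from 3 vehicle and 3 guadecitabine libraries of MDA-MB-231 cells was analyzed, grouped and numbered by their labels. Alignment to hg19 was done by the authors with STAR (2.3.1z per the submitters' processing notes). The deposited values were raw counts of exon reads, which the authors obtained for each RefSeq transcript by iRNA-seq, and the exon length in bp. How multi-mapping reads and strand were treated is not given in the sources used here, so that reads of overlapping antisense transcripts cannot be told apart from those of a gene, and transcript isoforms were not separated. Another 6 columns of regularized log values and the columns of the authors' own DESeq2 comparison (mean, fold change, SE, statistic, p-values) were not used.

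Counts were normalized by TMM and tested with edgeR 4.0.16 in R 4.3.3 (quasi-likelihood test, filterByExpr with a minimum count of 10, Benjamini-Hochberg adjustment over 13322 genes, threshold 0.05). The SE is the size of the log2 fold change divided by the square root of F. Normalized counts are expressed per mean library size (17911210 counts), and the tests were checked on simulated data. Alternatives were a replicate block, DESeq2 1.42.0, 2 other scalings, 2 other filters on low counts, subtraction of the background from vehicle replicate 3 and leaving out each library. The 10 genes, the lists and the alternatives were chosen with earlier results of these data known. All 10 genes were named, and in each list at most 3 genes that rose most and 3 that fell most among called genes with a mean of at least 50 normalized counts and no overlap between groups, fewer in the shorter lists. Some genes that this rule or a list holds are not reported here. Other genes were named as members of a count or after their values were seen. No pair of libraries was identical. The methods state no pairing, so that the replicate numbers were not used as pairs in the main fit. Same-numbered libraries had correlations of their deviations from the group means of -0.0375, 0.0383 and -0.0317. Those of differently numbered libraries ran from -0.0498 to 0.0496. With 3 libraries a group, these values cannot settle whether libraries were paired.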

Additional observations from a re-analysis of the deposited data

How the results depend on the processing

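Each count was recomputed under 13 alternatives, and 262 of the recomputed counts stayed within 1.5 times the reported one while 24 did not. With each library left out in turn, 1706 to 3002 of all genes were higher and 1629 to 2575 lower, the lowest values being those without guadecitabine replicate 3. Likewise, 1 to 5 mesenchymal transcription factors were higher, 2 to 6 splicing factors were lower, 5 to 11 epithelial junction and surface genes were higher, 0 to 1 gene of the cadherin-catenin complex was higher, 1 to 3 corepressors were lower and 1 to 3 other cadherins were higher. With no filter on low counts, 0 genes of the cadherin-catenin complex were higher and 2 corepressors were lower, and the number of genes adjusted over was larger. Other cadherins that were higher numbered 0 with at least 10 counts required in every library, which removed CDH13, and 2 with the background subtracted from vehicle replicate 3. Fold changes of the 8 genes tested kept their direction and side of the threshold in 88 cases, lost the call in 11 (CDH1 and VIM) and changed sign in 4, all of ZEB1, which was not called. The log2 fold change of ZEB1 was -0.04 without vehicle replicate 3, -0.19 without guadecitabine replicate 1 and -0.003 without guadecitabine replicate 3, and ran from -0.19 to 0.22 over the libraries left out. The cause of these changes was not tested.

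With the replicate number as a block, 2424 genes were higher and 2230 lower, 0 genes of the cadherin-catenin complex were higher, 2 corepressors were lower, ZEB1 had a log2 fold change of -0.017, and CDH1 (-1.56, adjusted p = 0.0638, edgeR) and VIM (0.32, adjusted p = 0.0553) lost their calls. With no filter CDH1 had an adjusted p of 0.0544 (edgeR). At raw counts of 6 to 20 for CDH1 and at most 2 for ESRP1 after guadecitabine, depth limits what can be said of these genes.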

Other observations

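Several genes of the mesenchymal and epithelial lists that did not pass the test had counts at or near 0 in vehicle replicates 1 and 2 and clear counts in all 3 guadecitabine libraries. These genes were chosen after their values were seen. TWIST1, encoding a helix-loop-helix factor that drives EMT, had 0, 0 and 54 counts in vehicle replicates 1, 2 and 3 and 67, 33 and 53 in guadecitabine replicates 1, 2 and 3. The expected background in vehicle replicate 3 was 11.8 counts, below the 54 observed. The log2 fold change of TWIST1 over all libraries was 1.99 (adjusted p = 0.212, edgeR). Against a floor of 3 counts per library in vehicle replicates 1 and 2 alone, TWIST1 was at least 19.4-fold higher, a value given without a test. This fold leaves out vehicle replicate 3, which had 41.7 normalized counts of TWIST1 against 53.5 to 67.2 in the guadecitabine libraries. It is therefore no lower bound for the comparison of all libraries, and the same holds for the folds by this floor below. THY1, a surface glycoprotein gene of mesenchymal cells, had 0, 1 and 51 counts in vehicle and 96, 42 and 89 in guadecitabine libraries, or at least 28.0-fold higher by the same floor. POSTN, encoding the matrix protein periostin, had 0, 0 and 31 counts in vehicle and 48, 9 and 31 in guadecitabine libraries, or at least 9.79-fold higher. Over all libraries the POSTN groups overlapped. On the epithelial side, S100A14 had 3, 1 and 34 counts in vehicle and 37, 22 and 28 in guadecitabine libraries, or at least 11.4-fold higher by the same floor. TWIST1, THY1, POSTN and S100A14 were all above their expected background counts in vehicle replicate 3, with POSTN the closest to its background. That background is a median rate over genes, and its spread is not given here. Whether the excess counts came from expression in the cells of vehicle replicate 3 was not tested.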
